A study of Mus musculus with 4 samples.

Results

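The kinesin motor genes were compared between proliferating chondrocytes (PC) and hypertrophic chondrocytes (HC), the cartilage cells of the growing limb skeleton before and after they stop dividing and enlarge. Members were all protein-coding mouse genes whose symbol is Kif with a number or Kifc with a number, which gave 41 of 34547 genes. Of these, 12 were set aside as mitotic (Kif2c, Kif4, Kif11, Kif14, Kif15, Kif18a, Kif18b, Kif20a, Kif20b, Kif22, Kif23 and Kifc1), and the other 29 are called transport kinesins here. That second name is loose, since the group holds every other family member, among them Kif2a, Kif24 and Kif2b, which belong to a family known for taking microtubules apart and not for carrying cargo. All cells came from forelimb cartilage of C57BL/6 mouse embryos, cut from frozen sections with a laser. The 2 PC libraries (replicates 1 and 2) were taken at E14.5 (embryonic day) and the 2 HC libraries (replicates 3 and 4) at E15.5, so cell state and day of development cannot be told apart. No genotype or treatment is named for either group, and nothing in the labels says that replicates came from separate animals, so p-values measure only the spread between these samples, which may be technical.

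Kinesins are motor proteins that burn ATP to move along microtubules or to shorten them at their ends. In a dividing cell one set of them builds the spindle, lines up the chromosomes and assembles the midzone on which the cell is pinched apart, and their genes are mostly switched on late in the cell cycle. Other kinesins haul vesicles, organelles and RNA toward the cell edge, build the cilium or control microtubule length in cells that no longer divide. Cartilage growth plates hold both situations side by side, since proliferating chondrocytes divide in columns and hypertrophic ones leave the cell cycle.

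Depth ran from 15246529 to 36644496 estimated counts a library, both HC libraries being shallower than both PC libraries. The labels of the groups matched their markers: 10 hypertrophic zone genes summed to 458 and 1342 TPM (the level of transcripts, scaled to their length and to a fixed total) in PC against 14200 and 24320 TPM in HC, and 6 proliferating zone genes to 1050 and 705 TPM in PC against 143 and 216 TPM in HC. PC thus held some hypertrophic signal as well. Markers of several other cell types, though not of nerve, were also higher in HC: in summed TPM the 8 macrophage genes stood at 10.2 and 18.3 in PC and 117 and 73.7 in HC replicates 3 and 4, and the 8 genes of osteoblasts and perichondrium at 275 and 345 against 2061 and 1167. HC replicate 3 stood apart, with 8.75% of its counts in the gene model Gm10800 against 1.75% to 2.67% in the other 3 libraries, and with the highest mitochondrial share, 20.2% against 8.81% to 14.1%. The part of these differences in the results that follow was not tested. In bulk tissue, fewer cells of a type and less RNA per cell cannot be told apart.

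The mitotic kinesins were lower in hypertrophic cartilage. The 4 that fell were Kifc1, Kif23, Kif18b and Kif15, lower by 5.12-fold to 8.04-fold, and the other 8 did not pass the test. In 11 of the 12 both HC libraries lay below both PC libraries in counts scaled to library size, and the exception on that scale was Kif20b. The median log2 fold change of HC over PC was -1.97 for the 12, with quartiles of -2.41 and -1.25, whereas over all 16607 genes tested it was -0.04, with quartiles of -0.84 and 0.79. The test was edgeR's quasi-likelihood test with p-values adjusted over all genes (Benjamini-Hochberg) and called under 0.05, by which 1.96% of all genes fell and 2.75% rose. Non-overlapping groups are common with so few libraries, and 33.3% of all genes tested had both HC libraries below both PC libraries, against 91.7% of the mitotic kinesins. At an unadjusted p under 0.05, 8 of the 12 were lower and 0 higher (14.4% and 12.7% of all genes), and DESeq2 called 8 lower and 0 higher (8.84% and 9.94% of all genes).

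Kif23, the motor subunit of the centralspindlin complex that bundles microtubules in the midzone between separating chromosomes, stood at 64.5 and 63.6 CPM (counts scaled to a common library size) in PC replicates 1 and 2 and at 12.1 and 4.05 CPM in HC replicates 3 and 4. The PC libraries were nearly equal, and the higher HC library held 2.99 times the lower one. Its gene (chr9:61915905-61946774 in GRCm38, minus strand) fell by 3.0 ± 0.57 on the log2 scale (SE, 2 libraries a group, adjusted p = 0.0479 with edgeR's quasi-likelihood test), or 8.01-fold. Kifc1 (chr17:33875659-33890661, minus strand), a motor that walks toward the minus end and gathers microtubules at the spindle poles, stood at 21.3 and 15.2 CPM in PC against 3.17 and 1.44 CPM in HC. It fell by 3.01 ± 0.57 on the log2 scale (adjusted p = 0.0479, edgeR). The groups of both genes were far apart.

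Kif18b (chr11:102905529-102925124, minus strand), which acts at the plus ends of the astral microtubules, stood at 37.4 and 26.8 CPM in PC against 3.57 and 7.07 CPM in HC. In CPM it was the single mitotic kinesin with more signal in HC replicate 4 than in HC replicate 3, and in TPM Kifc1 had more there as well. It fell by 2.58 ± 0.48 on the log2 scale (adjusted p = 0.047, edgeR). Kif15 (chr9:122951046-123018733, plus strand), which helps to keep the spindle poles apart, stood at 61.2 and 60.9 CPM in PC against 16.2 and 7.74 CPM in HC, without overlap. It fell by 2.35 ± 0.44 on the log2 scale (adjusted p = 0.0472, edgeR).

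These 4 calls lie close to the threshold and depend on single libraries and on the scaling. Without PC replicate 1, Kifc1 (adjusted p = 0.152, edgeR) and Kif18b (adjusted p = 0.0711) were lost while Kif14 (0.046) and Kif20a (0.0257) passed, so that the count stayed at 4 against a background of 1.41% of all genes called lower. Leaving out PC replicate 2 gave 6 (background 2.98%), HC replicate 3 gave 12 (15.2%) and HC replicate 4 gave 8 (20.7%). Without HC replicate 3 the log2 changes of Kif23, Kifc1 and Kif15 moved to -4.01, -3.69 and -3.01, and without HC replicate 4 that of Kif18b moved to -3.21. Kif23 and Kif15 passed in all 4 of these fits. Each leaves 1 library in an arm, which is assumed to vary like the other group, so passing there is weak evidence of stability. With library size alone as the scaling, and with limma on log2(TPM + 1), 0 of the 12 passed and 0 of all 16607 genes either (4394 and 4260 of all genes had an unadjusted p under 0.05 there), and with a correction for transcript length 2 did, Kif23 and Kifc1 (0.994% of all genes). No mitotic member changed direction under any of the 12 alternatives run.

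**Figure D1:**
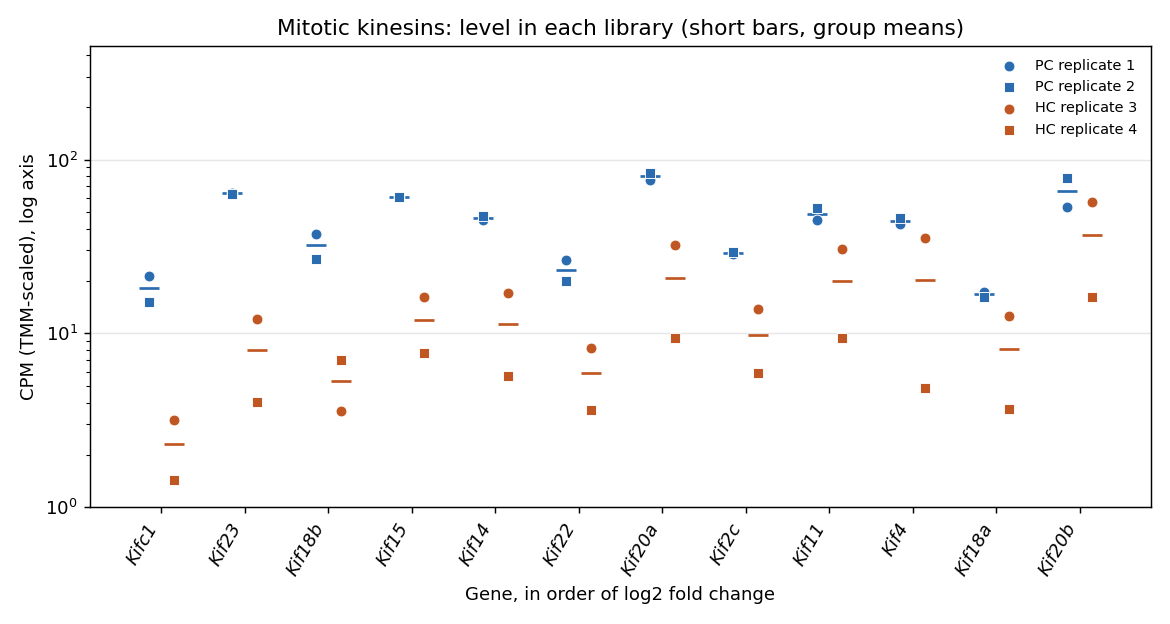
Level of each mitotic kinesin in CPM (log axis) in the 4 libraries, one point a library (circle and square for the replicates of a group) with a short bar at the group mean, genes ordered by log2 fold change. PC points lie close together and above both HC points for 11 genes, and for Kif20b HC replicate 3 lies between the PC points.

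The other mitotic kinesins had lower means in HC but did not pass. Kif14, which acts in the last step of cell division together with citron kinase, stood at 44.9 and 47.6 CPM in PC against 17.0 and 5.72 CPM in HC (log2 change -2.04 ± 0.55, adjusted p = 0.0891, edgeR). With the correction for transcript length the change of Kif14 was -0.48 (adjusted p = 0.817, edgeR), and on the TPM scale HC replicate 3 (8.19) lay close to PC (11.7 and 8.90) and HC replicate 4 at 0.98. Kif22, a motor on chromosome arms whose human counterpart is mutated in a skeletal dysplasia with lax joints, stood at 26.6 and 19.9 CPM in PC against 8.20 and 3.65 CPM in HC (log2 change -1.98 ± 0.52, adjusted p = 0.0837, edgeR). Kif20a, which brings Aurora B to the midzone, stood at 76.6 and 84.2 CPM in PC against 32.2 and 9.41 CPM in HC (log2 change -1.96 ± 0.59, adjusted p = 0.106, edgeR). Kif14, Kif22 and Kif20a showed no overlap between groups, and in each the HC libraries differed from each other by more than 2-fold in CPM.

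Kif2c, which shortens microtubules at the centromere and corrects faulty attachments, stood at 28.6 and 29.2 CPM in PC against 13.7 and 5.94 CPM in HC (log2 change -1.56 ± 0.48, adjusted p = 0.11, edgeR). Kif11, the motor that pushes the spindle poles apart and the target of several antimitotic drugs, stood at 44.8 and 52.6 CPM in PC against 30.7 and 9.36 CPM in HC (log2 change -1.29 ± 0.57, adjusted p = 0.218, edgeR). Both were lower in both HC libraries, but the spread within HC was wide.

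Kif4, a motor of chromosomes and of the midzone, had the widest HC gap of the mitotic kinesins in CPM: it stood at 42.6 and 46.1 CPM in PC, at 35.5 CPM in HC replicate 3 and at 4.86 CPM in HC replicate 4, a 7.30-fold gap, while in TPM its HC libraries stood at 5.81 and 3.60 (log2 change -1.15 ± 0.84, adjusted p = 0.435, edgeR). Kif18a, which dampens chromosome movements at the spindle equator, stood at 17.4 and 16.2 CPM in PC against 12.7 and 3.69 CPM in HC (log2 change -1.05 ± 0.63, adjusted p = 0.346, edgeR). Kif20b, a motor of late cell division, stood at 53.5 and 78.1 CPM in PC against 57.1 and 16.2 CPM in HC, so its groups overlapped (log2 change -0.85 ± 0.61, adjusted p = 0.424, edgeR). In CPM, HC replicate 3 of these 3 genes lay near the PC level and HC replicate 4 well below it. On the TPM scale HC replicate 3 lay below both PC libraries in each. It stood at 5.81 TPM against 16.6 and 12.5 for Kif4 and at 4.19 against 7.89 and 6.88 for Kif18a. For Kif20b it stood at 20.7 TPM against 40.3 and 41.9, so the overlap of its groups was on the CPM scale only.

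The spread within HC had a common direction. In CPM, HC replicate 3 was above HC replicate 4 in 11 of the 12 mitotic kinesins. Over the 12 the higher HC library held 1.98 to 7.30 times the CPM of the lower one, with a median of 2.98. The PC libraries differed by 1.01 to 1.46 times, with a median of 1.09. In TPM the gaps differed: HC replicates 3 and 4 stood at 16.9 and 11.8 for Kif15 and at 8.19 and 0.98 for Kif14. Kifc1 was higher in HC replicate 4 on that scale (1.52 against 1.21 TPM). HC replicate 3 also held more of the summed macrophage markers (117 against 73.7 TPM), of the markers of osteoblasts and perichondrium (2061 against 1167 TPM) and of muscle markers (157 against 57.1 TPM) than HC replicate 4. In summed TPM it held less of the hypertrophic zone genes (14200 against 24320) and of the proliferating zone genes (143 against 216). The same held for red blood cell markers (458 against 684 TPM) and epidermis markers (4.84 against 16.3 TPM). Within the hypertrophic list Ihh (1902 against 513 TPM) and Ibsp (2316 against 1920 TPM) went the other way, unlike the rest of that list. The part of these marker differences in the mitotic levels of HC replicate 3 was not tested.

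Promoter sequences were set beside these values because genes of late cell division are known to share a short promoter element, the cell cycle genes homology region (CHR, TTTGAA), often with CCAAT boxes upstream of it, while E2F factors bind sites such as TTGGCGC. The RefSeq promoter table (GRCm38.p6, 250 bases before to 50 after a start) held 11 of the 12 mitotic genes and 21 of the 29 transport genes. Shown are 80 bases before to 20 bases from the start for the 4 mitotic kinesins that fell, for Kif18a, whose window holds no TTTGAA, and for Kif26b, the transport kinesin that fell. Capitals mark 3 motifs on either strand: TTTGAA (which reads as TTCAAA on the other strand), CCAAT (read as ATTGG) and the E2F site TTGGCGC (read as GCGCCAA).
Kif23: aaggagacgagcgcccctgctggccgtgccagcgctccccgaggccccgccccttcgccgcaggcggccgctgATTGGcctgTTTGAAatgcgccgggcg
Kifc1: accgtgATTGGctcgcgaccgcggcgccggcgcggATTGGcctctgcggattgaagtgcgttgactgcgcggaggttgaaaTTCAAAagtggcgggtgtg
Kif18b: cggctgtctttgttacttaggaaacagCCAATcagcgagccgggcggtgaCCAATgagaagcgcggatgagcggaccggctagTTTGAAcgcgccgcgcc
Kif15: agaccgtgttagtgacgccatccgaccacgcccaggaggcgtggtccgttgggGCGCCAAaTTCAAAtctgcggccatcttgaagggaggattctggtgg
Kif18a: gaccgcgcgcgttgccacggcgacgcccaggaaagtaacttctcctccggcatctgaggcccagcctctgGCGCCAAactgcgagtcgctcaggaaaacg
Kif26b: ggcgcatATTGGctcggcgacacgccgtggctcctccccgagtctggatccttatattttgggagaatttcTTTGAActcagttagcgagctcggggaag
In order, these windows are chr9:61946780-61946879 (minus strand), chr17:33890614-33890713 (minus), chr11:102925105-102925204 (minus), chr9:122951001-122951100 (plus), chr2:109280658-109280757 (plus) and chr1:178529045-178529144 (plus), each written 5′ to 3′ along the gene.

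Of the 11 mitotic windows of 300 bases, 10 held TTTGAA on either strand (90.9%), against 3 of 25 transport windows (12%, Kif1a, Kif26b and Kif27) and 17.9% of all 32851 windows in the table. Within 30 bases of the start it lay in 8 mitotic windows and in 1 transport window, that of Kif26b, against 3.1% of all windows. CCAAT was in 7 mitotic windows (63.6%), 9 transport windows (36%) and 37.4% of all windows. TTGGCGC was in 2 mitotic windows, those of Kif15 and Kif18a, in 0 of 25 transport windows and in 2.5% of all. The related TTCCCGC was in 0 mitotic windows, 2 transport windows and 4.6% of all, and the CHR variant TTTAAA in 2 mitotic windows, 0 transport windows and 13.2% of all. Both strands were searched, matches of different motifs may overlap, as CCAAT on the other strand can with TTGGCGC, and each motif was counted on its own. A match describes the letters in the window, not a bound site, and whether the RefSeq start is the one used in these cells was not measured. Kif13b, Kif19a, Kif20a, Kif21b, Kif28, Kif5a, Kif5b, Kifc2 and Kifc3 had no entry.

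**Figure D2:**
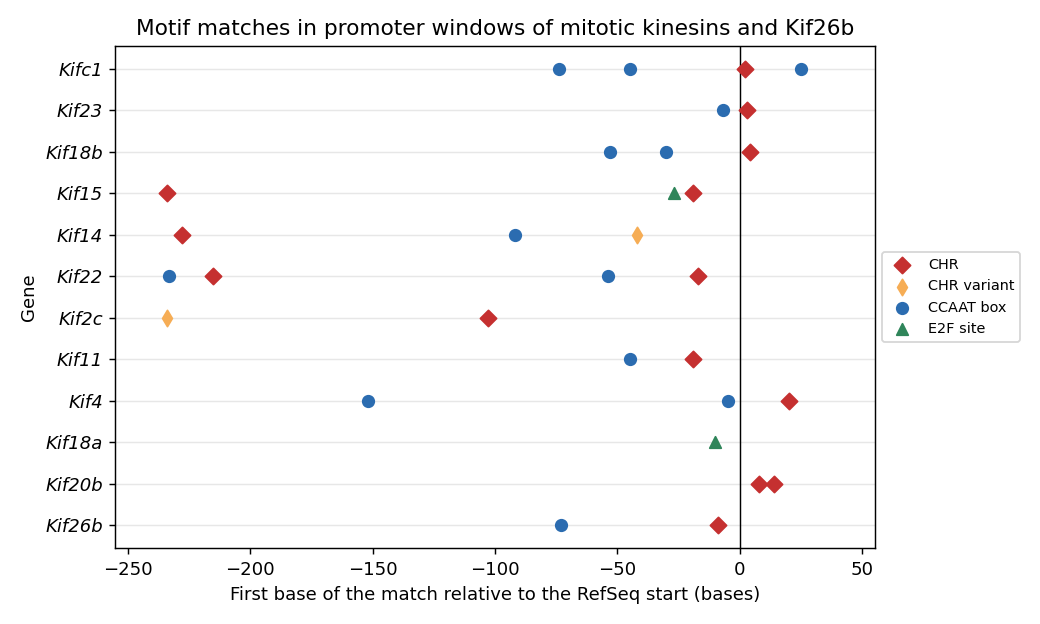
Positions of motif matches in the promoter windows of the matched mitotic kinesins and of Kif26b, in bases from the RefSeq start (x axis), one line a gene and one marker shape and colour a motif. TTTGAA matches gather at the start in most of the genes, and Kif18a has none.

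Among the transport kinesins 1 gene fell, Kif26b, 1 rose, Kif21b, and 24 of the 26 that could be tested did not pass. Their median log2 change was 0.05, with quartiles of -0.89 and 0.44, close to that of all genes, and 12 lay below 0 and 14 above. In 9 of the 26 (34.6%) both HC libraries were below both PC libraries and in 7 (26.9%) above them, which is near the 33.3% and 27.7% of all genes tested. The called shares, 3.8% each way, rest on a single gene each. At an unadjusted p under 0.05 there were 5 (these 2 with Kif24, Kif7 and Kif1b), where 14.4% of all genes were lower and 12.7% higher. DESeq2 called Kif26b, Kif24 and Kif7 lower and Kif21b higher, against 8.84% and 9.94% of all genes. Leaving out HC replicate 3 gave 5 lower, Kif26b, Kif24, Kif7, Kif13a and Kif1a, and 2 higher, Kif21b and Kif13b, where 15.2% and 13.1% of all genes were called. Leaving out HC replicate 4 gave 6 lower, Kif26b, Kif24 and Kif7 with Kif19a, Kif6 and Kif9, against 20.7% of all genes.

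**Figure D3:**
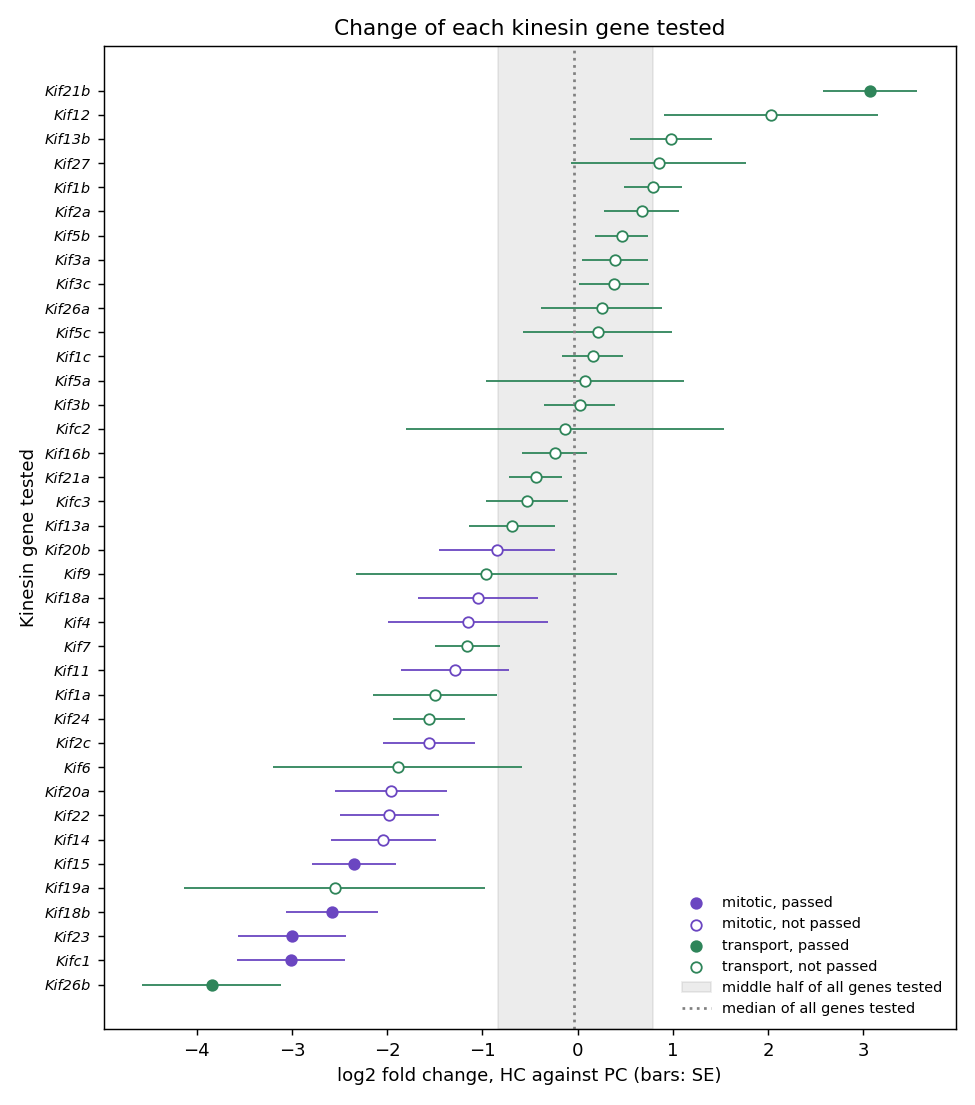
Log2 fold change of HC over PC for every tested kinesin, with bars of 1 SE, mitotic and transport members in separate colours and called members marked. All mitotic points lie to the lower side of 0, and the transport points spread on both sides from -3.84 to 3.07.

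Kif26b belongs to a small, atypical branch of the family and acts downstream of Wnt5a and its receptor Ror in cell movement and organ shaping. It took the most counts of any kinesin in PC, which is not a level per length, with 331 and 230.8 CPM, and stood at 31.9 and 7.56 CPM in HC replicates 3 and 4. Every HC value was several times below every PC value. Its gene (chr1:178529125-178939200, plus strand) fell by 3.84 ± 0.73 on the log2 scale, or 14.3-fold (adjusted p = 0.0479, edgeR's quasi-likelihood test), and DESeq2 gave an adjusted p of 2.01e-08. The change became -5.25 when HC replicate 3 was left out, -3.18 for HC replicate 4, and it passed in each fit with 1 library left out, where the spread comes from the other group alone. It was lost with the correction for transcript length (adjusted p = 0.0512) and with library size alone (0.0515). Its closest relative, Kif26a, stood at 3.69 and 3.27 CPM in PC against 3.49 and 4.77 CPM in HC, with no separation.

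Kif21b slows the growth of microtubules and is known mainly from neurons and lymphocytes. It stood at 8.78 and 9.55 CPM in PC against 45.9 and 108.0 CPM in HC replicates 3 and 4, so the PC libraries were alike and both HC libraries were higher. The gene (chr1:136131389-136177998, plus strand) rose by 3.07 ± 0.49 on the log2 scale, or 8.40-fold (adjusted p = 0.0383, edgeR), and DESeq2 gave 3.79e-08. Without HC replicate 4 the change was 2.28 and still passed, as it did without each other library, and the call was lost with the correction for transcript length (adjusted p = 0.055) and with library size alone (0.0624). On log2(TPM + 1) the change of Kif21b was 1.88 (adjusted p = 0.188, limma) and on log2(TPM + 0.1) it was 2.24 (adjusted p = 0.205, limma). With limma 0 of all genes passed on either scale. The 8 macrophage genes summed to 10.2 and 18.3 TPM in PC against 117 and 73.7 TPM in HC, all with log2 changes above 0, and 1 of them, Cd68, rose. The 12 nerve genes summed to 20.1 and 18.3 TPM in PC against 10.4 and 8.65 TPM in HC, with 5 and 4 of them at 0 in HC. The part of such cells in the Kif21b signal was not tested. Its relative Kif21a, which holds microtubule ends at the cell cortex, stood at 93.5 and 106.1 CPM in PC against 74.1 and 72.7 CPM in HC (log2 change -0.44 ± 0.28, adjusted p = 0.363, edgeR).

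Kif7 and Kif24 are tied to the cilium, the antenna through which chondrocytes sense Hedgehog signals. Kif7, which organises the ciliary tip and tunes the Gli factors of that pathway, stood at 27.0 and 26.1 CPM in PC against 13.2 and 10.6 CPM in HC, without overlap (log2 change -1.16 ± 0.34, adjusted p = 0.101, edgeR). Kif24, which trims microtubules at the mother centriole and holds back cilium assembly, stood at 24.3 and 20.01 CPM in PC against 6.90 and 8.15 CPM in HC, also without overlap (log2 change -1.56 ± 0.38, adjusted p = 0.074, edgeR). Neither passed. Kif3a and Kif3b form the motor that carries building material up the cilium. Kif3a stood at 19.5 and 30.1 CPM in PC against 32.9 and 31.9 CPM in HC (log2 change 0.39 ± 0.35, adjusted p = 0.531, edgeR), and Kif3b at 21.8 and 21.6 CPM against 16.8 and 27.0 CPM (log2 change 0.02 ± 0.37, adjusted p = 0.982, edgeR), with HC values on both sides of PC.

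Among the main cargo carriers none passed. Kif5b, the widely expressed heavy chain of conventional kinesin, stood at 70.7 and 86.3 CPM in PC against 106.3 and 110.0 CPM in HC, the groups just apart (log2 change 0.46 ± 0.28, adjusted p = 0.357, edgeR). Kif1b, a carrier of mitochondria and vesicles, stood at 103.4 and 136.3 CPM in PC against 215.7 and 197.9 CPM in HC, without overlap (log2 change 0.79 ± 0.30, adjusted p = 0.166, edgeR). Its direction depended on the scale: on log2(TPM + 1), where the median of all genes was -0.39, its change was -0.22. Kif13b, which binds the scaffold protein Dlg at the cell edge, stood at 19.4 and 12.95 CPM in PC against 22.7 and 40.8 CPM in HC (log2 change 0.98 ± 0.43, adjusted p = 0.214, edgeR).

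Kif2a, which shortens microtubules outside mitosis as well as in the spindle, overlapped between groups because HC replicate 4 (85.6 CPM) lay just below PC replicate 2 (86.5 CPM), with 55.3 CPM in PC replicate 1 and 139.6 CPM in HC replicate 3 (log2 change 0.67 ± 0.39, adjusted p = 0.334, edgeR). Kif1c, a motor of Golgi traffic and of integrin-bearing vesicles, stood at 33.4 and 29.2 CPM in PC against 29.6 and 40.2 CPM in HC (log2 change 0.16 ± 0.32, adjusted p = 0.794, edgeR). Kif16b, which moves early endosomes, stood at 25.5 and 28.4 CPM in PC against 18.7 and 26.9 CPM in HC (log2 change -0.24 ± 0.34, adjusted p = 0.702, edgeR). In these 3 genes the groups could not be separated at this depth and number of libraries.

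Kif13a, a carrier of recycling endosomes, and Kifc3, a minus-end motor at cell junctions, had lower HC values without overlap but did not pass. Kif13a stood at 33.9 and 26.3 CPM in PC against 25.5 and 12.1 CPM in HC (log2 change -0.69 ± 0.45, adjusted p = 0.386, edgeR). Kifc3 stood at 13.7 and 11.3 CPM in PC against 7.14 and 10.1 CPM in HC (log2 change -0.53 ± 0.43, adjusted p = 0.482, edgeR). The lowest PC and highest HC values of both lay close together.

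**Figure D4:**
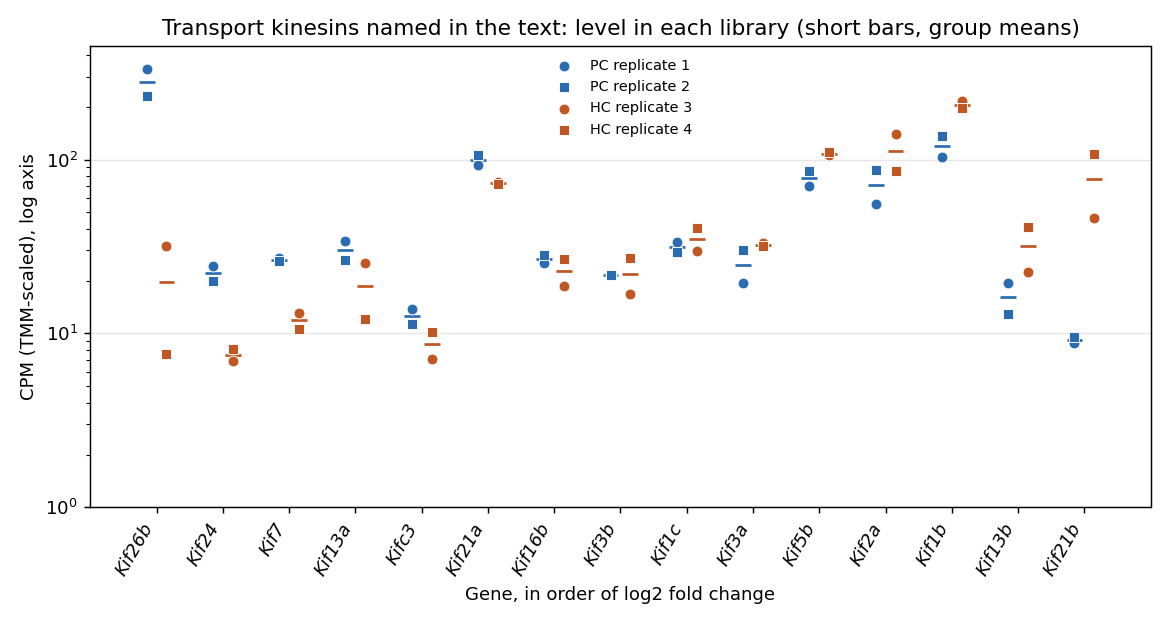
Level of each named transport kinesin in CPM (log axis) in the 4 libraries, one point a library (circle and square for the replicates of a group) with a short bar at the group mean, genes ordered by log2 fold change. Kif26b at the left end and Kif21b at the right end show the widest gaps between PC and HC, and most other genes have HC and PC points close together.

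The other 14 transport kinesins had a mean TPM under 5 in both groups. Of these, 11 could be tested, and their log2 changes ran from -2.55 to 2.03 with SE from 0.37 to 1.67; 0 passed edgeR's test, 0 had an unadjusted p under 0.05, and their adjusted p ran from 0.207 to 0.97. They were Kif19a, Kif6, Kif1a, Kif9, Kifc2, Kif5a, Kif5c, Kif26a, Kif3c, Kif27 and Kif12, with 0 to 752 counts a library. Among them are Kif1a, Kif5a and Kif5c, known from axonal transport, and Kif6, Kif9 and Kif19a, known from motile cilia and flagella. The 3 not tested were Kif17, with 23 counts over the PC libraries and 0 over the HC libraries, Kif28, with 10 and 0, and Kif2b, with 0 in all 4. With 3 counts taken as the limit for the HC group, the PC level lay 3.63-fold above that limit for Kif17 and 1.58-fold for Kif28. The counting error of the PC counts was left out, so these are not lower bounds of the change.

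Per length of transcript, the make-up of the kinesin pool differed between the groups. The 12 mitotic kinesins summed to 400.7 and 331.2 TPM in PC and to 96.6 and 56.8 TPM in HC, which was 55.3% and 53.0% of all kinesin TPM in PC and 34% and 15.6% in HC. The transport kinesins summed to 323.3 and 293.6 TPM in PC against 187.1 and 307.6 TPM in HC, so their groups overlapped. These sums repeat the genes described above and were not tested.

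**Figure D5:**
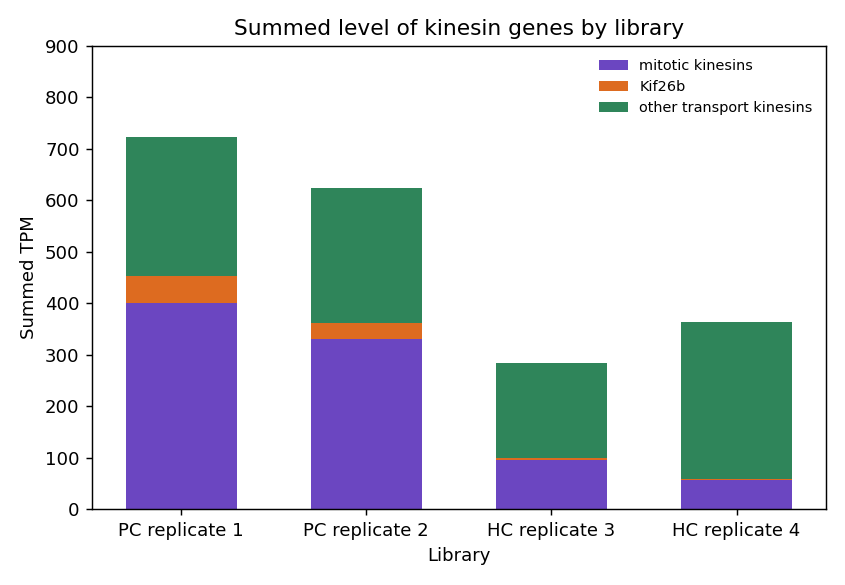
Summed TPM of the kinesin genes in each library, stacked as mitotic kinesins, Kif26b and the other transport kinesins. The mitotic segment is 400.7 and 331.2 TPM in PC against 96.6 and 56.8 TPM in HC, and the segment of the other transport kinesins is of similar height in PC and in HC replicate 4.

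In mean TPM the order in PC was led by Kif23 (95.5), Kif15 (64.9), Kif2a (49.9), Kif1b (43.8), Kif5b (43.5), Kif26b (41.9) and Kif20b (41.1). The 2 libraries of Kif23, at 110.5 and 80.4 TPM, both lay above both libraries of Kif15, at 71.7 and 58.1 TPM, while the libraries of Kif2a, Kif1b and Kif5b overlapped. Both libraries of Kif20b lay below both of Kif2a and of Kif1b, by little, and overlapped with those of Kif5b and Kif26b. In HC the order was led by Kif5b (55.6), Kif2a (54.96) and Kif1b (37.9), followed at a distance by Kif20b (15.52), Kif3a (15.01), Kif15 (14.3) and Kif21b (12.7). Kif5b, at 39.3 and 71.8 TPM in HC, and Kif2a, at 44.5 and 65.5 TPM, were not separable. Kif23 was at rank 11 of the 41 in HC and Kif26b at rank 27, whereas Kif21b was at rank 30 in PC.

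Transcript estimates within the genes are described without a test, since no error of the assignment is known for them. Transcripts annotated as protein-coding took 80.7% and 71.4% of the Kif22 counts in PC but 5.6% and 26.4% in HC, the rest being retained-intron models. For Kif23 the protein-coding share was 57.9% and 56.8% in PC and 55.1% and 29.3% in HC. For Kif21b it was 70.6% and 25.4% in PC and 96.1% and 95.0% in HC, where Kif21b-201, its longest coding transcript listed, held 213.1 and 93.6 estimated counts in PC against 544 and 2280 in HC. For Kif26b it was 93.1% and 94.0% in PC and 87.5% and 81.5% in HC. Most Kif22 counts in HC were thus assigned to transcripts that are not annotated to give protein, though Kif22 had only 101 and 81 counts there. Kif22 was not alone in this drop. For Kif20b the protein-coding share was 69.1% and 45.3% in PC and 41.9% and 7.5% in HC. For Kif15 it was 73.5% and 80.1% in PC and 56.3% and 52.3% in HC. Kif11, Kif14 and Kif20a showed no such drop.

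Some reads cannot be placed with certainty. Kifc1 shares 39.08% of its 31-base words with Kifc5b, a near copy, which had 294 and 222 counts in PC and 2 and 4 in HC and itself fell (log2 change -5.34, adjusted p = 0.037, edgeR). Summed, the pair stood at 29.9 and 21.0 CPM in PC against 3.33 and 1.62 CPM in HC. Whether the counting used strand is not stated in the labels or headers, and Kif20a shares 22.3% of its words with the antisense gene Cdc23, Kif2a 18.42% with Dimt1 and Kif4 14.55% with Pdzd11. Reads of these 3 kinesins and of their neighbours may be mixed.

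Of 21 spindle and midzone genes that work with the mitotic kinesins, 8 fell and 0 rose (17 lower and 0 higher at an unadjusted p under 0.05, and 17 and 0 with DESeq2), with a median log2 change of -1.92. Of all genes, 1.96% fell by edgeR's test, 14.4% were lower at an unadjusted p under 0.05 and 8.84% were lower with DESeq2. The count of falls in the list was 3 with the length correction (0.994% of all genes). It was 0 with library size alone and with limma on either TPM scale, where 0 of all genes passed. Racgap1, the partner of Kif23 in centralspindlin, stood at 92.3 and 117.9 CPM in PC against 19.5 and 11.8 CPM in HC and fell by 2.75 ± 0.38 on the log2 scale (adjusted p = 0.0359, edgeR). Aurka, the kinase of the spindle poles, fell by 4.02 ± 0.43, Bub1, a kinase of the spindle checkpoint, fell by 2.49 ± 0.37 and Birc5, which anchors Aurora B, fell by 2.25 ± 0.33 on the same scale. Of 10 cell cycle markers 3 fell (Mcm5, Ccna2 and Cdk1, with log2 changes of -2.54, -2.32 and -1.93) and 0 rose. At an unadjusted p under 0.05, 9 were lower and 0 higher, and the same with DESeq2. With the length correction 4 of these markers fell, and 0 with library size alone and with limma on either TPM scale. 

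The partners of the transport kinesins showed few calls. Over all genes the shares lower and higher were 1.96% and 2.75% with edgeR's test, 14.4% and 12.7% at an unadjusted p under 0.05, and 8.84% and 9.94% with DESeq2. Of 19 light chains and cargo adaptors tested, 0 passed edgeR's test (2 higher and 2 lower at an unadjusted p under 0.05, and 2 and 2 with DESeq2), with a median of -0.10. The most abundant of them per length were Kidins220, a membrane scaffold carried by Kif5 motors, at 74.8 and 108.9 CPM in PC against 267.5 and 324.8 CPM in HC (log2 change 1.69 ± 0.34, adjusted p = 0.0523, edgeR), and Trak2, the link of mitochondria to Kif5, at 70.3 and 85.1 CPM against 100.8 and 74.8 CPM (0.18 ± 0.31). Kidins220 was higher in both HC libraries and Trak2 overlapped. Of 23 genes of cytoplasmic dynein and dynactin, the motor that runs the other way, 1 rose and 0 fell (4 higher and 0 lower at an unadjusted p under 0.05, 3 and 0 with DESeq2), namely the light chain Dynlt3 (2.13 ± 0.39, adjusted p = 0.0453). Of 20 intraflagellar transport genes 1 fell and 0 rose (6 lower and 1 higher at an unadjusted p under 0.05, 4 and 1 with DESeq2), namely Wdr35, also called Ift121 (-1.68 ± 0.32, adjusted p = 0.049, edgeR). In the intraflagellar transport list 0 genes fell without PC replicate 1, without PC replicate 2 or with the length correction, and in the dynein list 0 rose without PC replicate 1 or with the length correction. With either HC library left out, more intraflagellar transport genes fell and more dynein genes rose. A larger share of all genes fell and rose in those fits as well. Of 14 tubulins 0 passed edgeR's test (4 higher and 2 lower at an unadjusted p under 0.05, 3 and 0 with DESeq2), and the most abundant were Tubb5 (0.32 ± 0.35) and Tuba1b (-0.70 ± 0.42). Over the 6 lists 13 of 107 partner genes were called. Leaving out any 1 library raised that count, in fits that leave 1 library in an arm. The share of all genes called rose as well, except without PC replicate 1, where it fell.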

How the data were processed

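RNA was measured in 4 libraries, 2 of each group. Trimmomatic 0.36, kallisto 0.43.1 and build mm10 are named in the submitters' processing notes. The deposited tables give, per the file headers, an estimated count and a TPM value for each transcript, with a length and an effective length as other columns. The strand setting and any resampling in kallisto are not stated there.

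Transcripts were assigned to genes with GENCODE M21 (GRCm38): 107987 of 109282 matched, and the rest held 0.36% to 0.53% of counts. Counts were summed per gene and rounded. The main test was the quasi-likelihood test of edgeR 4.0.16, with filterByExpr (16607 genes), TMM scaling (factors 1.14, 1.058, 0.812 and 1.021) and Benjamini-Hochberg adjustment at 0.05. SE came from the coefficient and the F statistic. The 12 alternatives used DESeq2 1.42.0, limma 3.58.1 (log2(TPM + 1) and log2(TPM + 0.1)), scaling by library size alone, a transcript length offset, no filter, a minimum of 50 counts, removal of mitochondrial genes and Gm10800, and each library left out. R 4.3.3, Python 3.11.15, pandas 2.3.3, NumPy 2.4.6 and matplotlib 3.10.9 were used, and the count test was tested on simulated data.

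Members and lists were chosen with earlier results of these data known. Named with values were all mitotic members, and transport members that passed, had an adjusted p under 0.1 or reached a mean TPM of 5 in either group. Of each partner list up to 4 called genes with the lowest p were named or, with none called, the 2 highest in TPM. Kif26a, Cd68 and Kifc5b were added after their values were seen.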

Additional observations from a re-analysis of the deposited data

How the results depend on the processing

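No paired analysis was possible because the groups share no replicate numbers. The counts below are to be read against the shares of all genes called lower and higher in HC. These were 1.96% and 2.75% in the main test and 8.84% and 9.94% with DESeq2. Without a filter they were 4% and 3.99% of 24150 genes, and with the length offset 0.994% and 1.61%. With library size alone and with limma on either TPM scale 0 of all genes passed. The 4 mitotic kinesins called lower became 8 with DESeq2, 7 without a filter, 2 with the length offset and 0 with library size alone and with limma on either TPM scale; leaving out 1 library gave 4 to 12, and a median log2 change of -2.86 to -1.43. Transport kinesins called lower, 1 at first, became 3 with DESeq2, 2 without a filter, 0 with the length offset, library size alone and limma on either TPM scale, and 1 to 6 with 1 library left out. Those called higher, also 1, became 0 with the length offset, library size alone and limma, and 1 to 2 with 1 library left out. The transport median, 0.05, was -0.64 on log2(TPM + 0.1), and -0.29 to -0.03 with 1 library left out. Partner genes called, 13, became 41 with DESeq2, 32 without a filter, 7 with the length offset, 0 with library size alone and limma, and 17 to 48 with 1 library left out. Direction was compared only for the 27 kinesins named by the rule above, not for the 11 others tested. Among the 27 it changed in 4 transport kinesins that did not pass in the main test. On log2(TPM + 1) and log2(TPM + 0.1) the changes were -0.22 and -0.23 for Kif1b and -0.03 and -0.04 for Kif3a. For Kif1c they were -0.12 and -0.13, with -0.08 for library size alone and -0.12 to 0.33 with 1 library left out. For Kif3b they were -0.41 and -0.51, with -0.21 for library size alone and -0.01 without a filter. Kif3b also had -0.03 with the length offset and -0.41 to 0.29 with 1 library left out. The cause of these differences was not tested. Library size alone moved the median of all genes to -0.29, no filter to -0.25, and limma to -0.39 and -0.59. Members with few counts have the widest errors, up to an SE of 1.67.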
